A study of Mus musculus with 2 samples.

Results

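Mir708 and Mir151 are a pair of microRNA genes that each lie inside an intron of a protein-coding gene, on the same strand as the host. Mir708 lies in Tenm4, which encodes teneurin-4, a cell-surface adhesion protein of neurons and other cells, and Mir151 lies in Ptk2, which encodes focal adhesion kinase. They were chosen by gene identity and host, by a rule that uses no level, though earlier results of these data were known. They are 2 of the 2202 microRNA genes counted. Counts came from small RNA libraries of hippocampus tissue from B6CASTF1/J mice, an F1 hybrid of C57BL/6J and CAST/EiJ, all of them male and 36 days old and none with a labelled treatment or mutation. The tissue label reads layer of hippocampus, and whether the CAST/EiJ alleles affected mapping to the reference was not tested. The 2 samples are labelled biological replicates 2 and 1, with a tissue identifier each and a donor identifier in common, so the only comparison between samples is replicate 2 against replicate 1. The labels do not settle whether the samples came from separate animals, so each SD of n = 2 and each measure of spread between the libraries may be technical. A p-value between them describes these 2 libraries and the counting error in them, not a condition.

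An intronic microRNA is cut out of the primary transcript, often that of its host, as a hairpin, from which either arm can be loaded into an Argonaute protein. The loaded arm recognises target messenger RNAs mainly through its seed, here bases 2 to 8, so arms that share a seed share many predicted targets. miR-708 is known to be induced in the unfolded protein response together with its host, and in human liver cancer cells miR-151 has been linked to migration together with focal adhesion kinase. The host Ptk2 is expressed in most tissues, so it does not mark neurons. Host messenger RNA was not measured in these libraries.

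The arms of Mir708 are shown with those of Mir28a, because the 5′ arms of these genes carry the same seed. Sequences are from RefSeq on GRCm38.p6, 5′ to 3′, with the seed in capitals. Of Mir708, Mir151, Mir28a, Mir28b and Mir28c, 3 of 5 matched the RefSeq table, and Mir151 and Mir28c did not, so a seed relation of Mir151 to the others was not checked. The arms of Mir708 lie at chr7:96249450-96249472 and chr7:96249496-96249517, those of Mir28a at chr16:24827868-24827889 and chr16:24827908-24827929 and miR-28b at chr8:73016523-73016543, all on the plus strand.
mmu-miR-708-5p: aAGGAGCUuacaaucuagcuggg
mmu-miR-28a-5p: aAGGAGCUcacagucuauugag
mmu-miR-708-3p: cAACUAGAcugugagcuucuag
mmu-miR-28a-3p: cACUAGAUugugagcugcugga
mmu-miR-28b: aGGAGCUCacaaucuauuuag

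Among 1679 distinct mature arms in the table, only miR-708-5p and miR-28a-5p had the seed AGGAGCU. Counted from the 5′ end of miR-708-5p, 16 of 22 bases were identical in miR-28a-5p, and the differences, with the base of miR-708-5p written before the position, were U9C, A13G, G18U, C19U, U20G and G21A. The 3′ arms matched at 17 of 21 bases when shifted by 1 base against each other, and the shift gave them different seeds. miR-28b starts 1 base further in, so its seed also differs. Over whole hairpins in the GENCODE M21 annotation, the longest run of bases that Mir151 shared with Mir28c was 17, with Mir28a 16 and with Mir708 9, whereas Mir708 shared 10 with Mir28a.

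Mir708 (ENSMUSG00000076143.1) occupies chr7:96249424-96249532 on the plus strand of mm10, and Mir151 (ENSMUSG00000065612.1) occupies chr15:73254815-73254882 on the minus strand. Mir708 lay in intron 1 of every annotated Tenm4 transcript that spans it. In Tenm4-201 that intron has 183862 bases, and Mir708 stands 77930 bases after the upstream exon and 105823 bases before the next. Mir151 lay late in its host, in intron 22 of Ptk2-201 and intron 23 of Ptk2-208. That intron has 14556 bases, and Mir151 stands 2151 bases after the upstream exon and 12337 bases before the next. The Mir151 hairpin has 68 bases and a GC content of 57.4%, the Mir708 hairpin 109 bases and 50.5%, beside medians of 81 bases and 52.5% over the 504 genes with 10 or more counts in total.

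**Figure D1:**
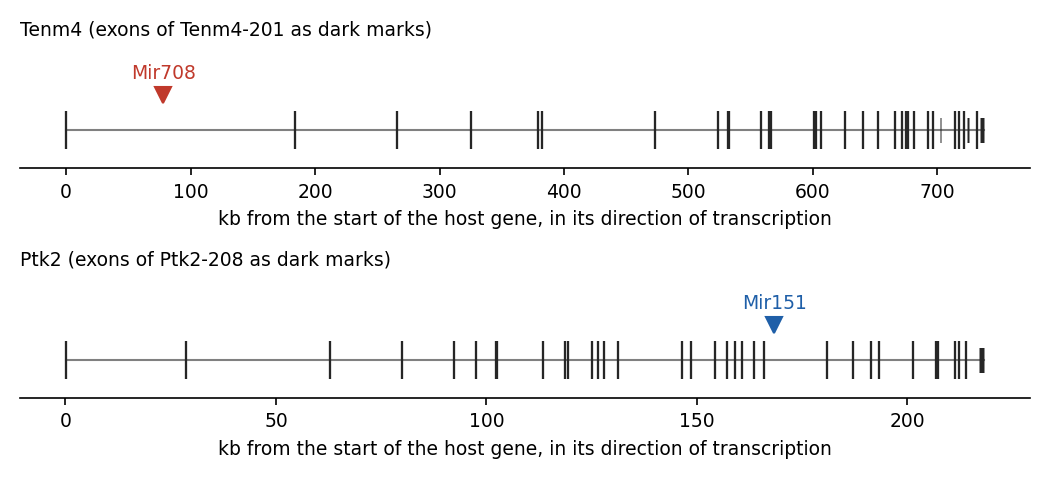
Position of Mir708 in Tenm4 and of Mir151 in Ptk2, in kilobases from the start of the host gene along its direction of transcription, with the exons of 1 transcript of each host as dark marks and the microRNA gene as a triangle. Mir708 falls in intron 1 of Tenm4-201 and Mir151 in intron 23 of Ptk2-208.

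Ptk2 held 1 counted microRNA gene, and Tenm4 held 2. The other gene in Tenm4, Mir6394, lies 56135 bases beyond Mir708 in the same intron and on the same strand. It had 0 counts in both libraries, which allows up to 3 counts per library, or 0.568 CPM in replicate 2 and 0.681 CPM in replicate 1 (CPM is counts per 1000000 counts assigned to microRNA genes). Against that floor Mir708 was at least 3065-fold higher in replicate 2 and at least 2438-fold higher in replicate 1. Floors and intervals cover counting error only, because PCR copies of a molecule were not marked.

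The own-strand total over microRNA genes was 5279877 in replicate 2 and 4404040 in replicate 1. The label of the tissue was checked against 15 microRNA genes typical of brain and neurons. They summed to 105161 CPM in replicate 2 and 96667 CPM in replicate 1, with 11 of 15 reaching 10 counts in both. Mir127 alone gave most of these sums, with 57832 CPM in replicate 2 and 55133 CPM in replicate 1. The 3 miR-124 genes, which define neurons, were nearly absent at 8, 1 and 0 counts in replicate 2 and 11, 1 and 0 in replicate 1, and each shares 20 bases with 2 other genes. The genes Mir9-1, Mir9-2 and Mir9-3 had 79, 9 and 553 counts in replicate 2 and 31, 10 and 336 in replicate 1. Each of them also shares 20 bases with 2 other genes. The 11 genes typical of other tissues summed to 411 CPM in replicate 2 and 371 CPM in replicate 1, and 3 of them had 0 counts in both. Each of those 3 shares 20 bases with 1 or 2 other genes. Reads that match several places enter no gene's count, so these zeros do not show absence. Most of the sum for other tissues came from Mir375, a gene of endocrine cells, at 271 and 239 CPM, and from the muscle gene Mir206, at 107 and 98.1 CPM. The liver gene Mir122 stood at 27.7 and 30.2 CPM. The 3 vessel wall genes summed to 43835 CPM in replicate 2 and 16250 CPM in replicate 1, of which Mir126a, a gene of endothelial cells, gave 37937 and 9729 CPM. Of the other vessel wall genes, Mir143 was lower in replicate 2, with 5658 CPM against 6311 CPM in replicate 1, and Mir145a was slightly higher, with 241 CPM against 209 CPM. The 3 red blood cell genes summed to 113 CPM in replicate 2 and 66.8 CPM in replicate 1. The 3 oligodendrocyte genes summed to 5661 CPM in replicate 2 and 5819 CPM in replicate 1.

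Mir151 was an abundant gene in both libraries. It had 50246 counts in replicate 2 and 53953 in replicate 1, which were 9517 CPM and 12251 CPM, with 95% Wilson intervals of 9434 to 9600 and 12148 to 12354. It averaged 10884 ± 1933 CPM (SD, n = 2) and was 17th of 2202 genes by mean, 26th in replicate 2 and 16th in replicate 1. It took 1.09% of all counts assigned to genes, as the mean of the libraries. Among 832 genes that lie in an intron and in no exon of another gene on their strand, Mir151 was the 9th. No reads were counted on its opposite strand in either library.

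Mir708 stood below Mir151 in both libraries, and its own levels in them lay close together. It had 9196 counts in replicate 2 and 7313 in replicate 1, or 1742 CPM and 1661 CPM, with intervals of 1707 to 1778 and 1623 to 1699. It averaged 1701 ± 57.4 CPM (SD, n = 2) and ranked 75th of 2202 by mean, 75th in replicate 2 and 74th in replicate 1. Among the intronic genes it was the 32nd. Together Mir151 and Mir708 took 1.13% of the gene counts in replicate 2 and 1.39% in replicate 1.

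**Figure D2:**
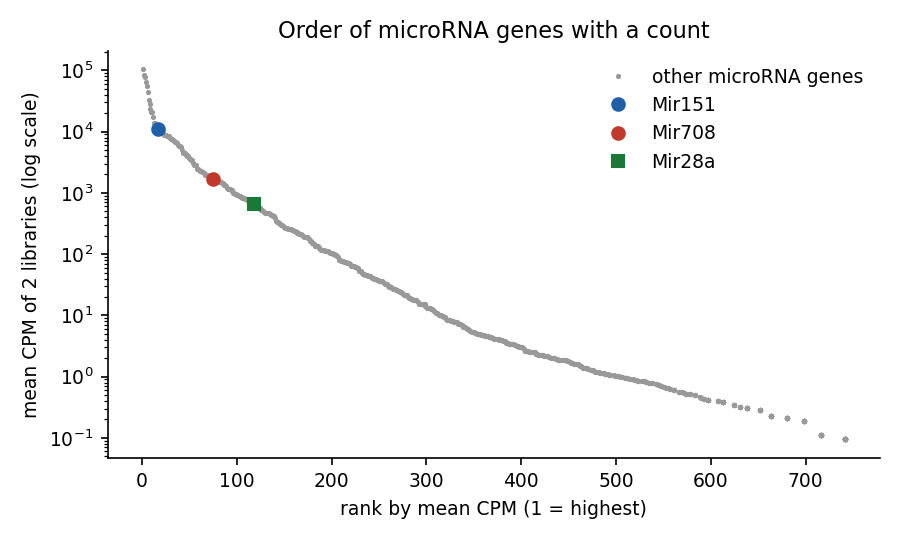
Mean CPM of the 2 libraries on a log axis against rank, for every microRNA gene with a count, with Mir151, Mir708 and Mir28a marked. Mir151 stands 17th at 10884 CPM, Mir708 75th at 1701 CPM and Mir28a 118th at 646 CPM.

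The count of Mir708 carries an uncertainty that was not found for Mir151. The gene Gm23134, in an intron of Blcap at chr2:157562361-157562447 on the minus strand of mm10, is the only other annotated microRNA gene that shares 20 or more bases with Mir708, and the shared run has 23 bases. Aligned to miR-708-5p, its hairpin matched 22 of 23 bases, the exception being A1C, so the seed and everything after it were identical. Against miR-708-3p it matched 12 of 22 bases. Gm23134 had 6 counts in replicate 2 and 5 in replicate 1, and adding them moved the mean of Mir708 to 1702 CPM. Reads that match several places enter no gene's count. They made up 46.5% of all reads in replicate 2 and 40.3% in replicate 1, and how many of them came from miR-708-5p was not measured. The counts are per gene, so the arms of Mir708 and of Mir151 cannot be told apart. Mir151 shared no run of 20 bases with another annotated gene.

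Within a library the genes can be compared without any scaling between libraries. Mir151 had 5.46 times the counts of Mir708 in replicate 2 (95% exact binomial interval 5.34 to 5.59) and 7.38 times in replicate 1 (7.20 to 7.56). The mean log2 ratio of Mir151 over Mir708 was 2.67 ± 0.31 (SD, n = 2), and Mir151 was higher in both libraries. The intervals do not overlap, and the ratio differed between the libraries beyond counting error (two-sided Fisher's exact test, p = 2.81e-71 with Benjamini-Hochberg adjustment over 3 pairs of genes). The log2 ratio in replicate 2 minus that in replicate 1 was -0.43. A difference beyond counting error was common between these libraries: 281 of 504 tested genes, 55.8%, passed the exact binomial test described below. Capture of a sequence during library preparation can vary with the sequence and was not measured, so molecules may stand in another ratio than counts.

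Mir28a, the gene that shares the seed of miR-708-5p and lies in an intron of Lpp, which encodes a focal adhesion protein, stood below both. It had 4104 counts in replicate 2 and 2270 in replicate 1, or 777 and 515 CPM, with a mean of 646 ± 185 CPM (SD, n = 2). Mir708 had 2.24 times its counts in replicate 2 (2.16 to 2.33) and 3.22 times in replicate 1 (3.07 to 3.38), and this ratio also differed between the libraries (Fisher's exact test, adjusted p = 3.65e-33). Mir151 had 12.2 times the counts of Mir28a in replicate 2 and 23.8 times in replicate 1 (adjusted p = 1.30e-139 by the same exact test). Mir708 gave 69.1% of the summed counts of Mir708 and Mir28a in replicate 2, with a Wilson interval of 68.4 to 69.9%. In replicate 1 it gave 76.3%, with 75.5 to 77.2%. Counts per gene mix both arms, and the 3′ arms have other seeds, so these are not shares among arms with the seed AGGAGCU. The count of Mir28a is uncertain, because it has 20 bases in common with Mir28c.

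The list of seed relatives held 5 genes: those with AGGAGCU within bases 1 to 10 of a mature arm, and Mir28a, Mir28b and Mir28c by name. Of these, 4 were in the files under those symbols and 2 had 10 or more counts in both libraries. Mir7080, which overlaps an exon of Cpne7 and carries the motif shifted by 1 base, was counted 1698 times in replicate 2 and 1377 times in replicate 1 and averaged 317 ± 6.32 CPM. Mir28c had 2 and 3 counts in replicates 2 and 1, and Mir28b had 0 in both, which is at or under the floor of 3. Gm51266 was not analysed here. The 4 relatives in the files stood below Mir708 in mean CPM.

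**Figure D3:**
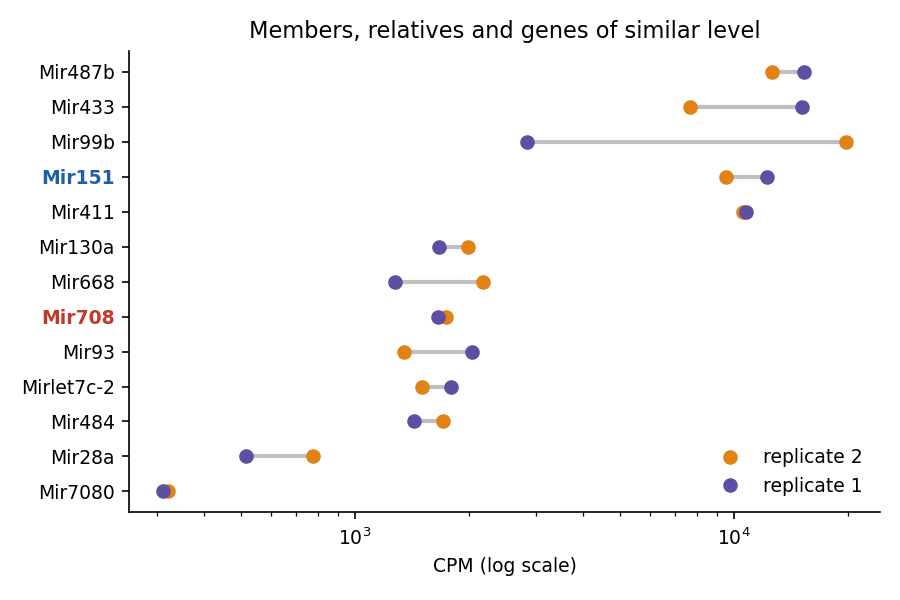
CPM on a log axis in replicate 2 (orange) and replicate 1 (purple) for Mir151, Mir708, the detected seed relatives Mir28a and Mir7080, and the genes nearest to each member in level, with a grey bar joining the libraries. Mir708 spans 1661 to 1742 CPM, a narrower span than its neighbours Mir668 and Mir93.

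The genes directly above and below Mir708 by mean CPM were Mir668, at 1727 ± 634 CPM, and Mir93, at 1691 ± 482 CPM (SD, n = 2). Those of Mir151 were Mir99b, at 11276 ± 11924 CPM, and Mir411, at 10668 ± 160 CPM. Each difference between a member and its neighbour was below the larger SD of the pair, so their order is not resolved. Judged by the Euclidean distance in log2(CPM + 1) over the 2 libraries, the nearest genes to Mir708 were Mir130a (0.19), Mir484 (0.21) and Mirlet7c-2 (0.24). Nearest to Mir151 were Mir411 (0.24), Mir433 (0.43) and Mir487b (0.52). This measure rests on 2 values per gene. The counts of Mirlet7c-2, Mir411 and Mir487b are uncertain for the reason given for Mir28a.

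Replicate 2 was then set against replicate 1 over all genes, by an exact conditional binomial test on counts scaled with TMM (trimmed mean of M values), with Benjamini-Hochberg adjustment. Mir151 was lower in replicate 2, with 9517 CPM against 12251 CPM in replicate 1, a log2 ratio of -0.38 (adjusted p under 1e-300 in the exact test). It was lower under all 3 scalings and all 3 count minimums. Mir708 differed little, with 1742 CPM in replicate 2 and 1661 CPM in replicate 1, a log2 ratio of 0.052 (adjusted p = 0.0415 in the exact test). Its direction and size depend on the setting: the log2 ratio was -9.77e-05 with DESeq2 size factors (adjusted p = 1) and -0.083 with a minimum of 100 counts (adjusted p = 0.000381), against 0.069 with library totals (adjusted p = 0.00472) and 0.107 with either-strand counts (adjusted p = 5.12e-06). Both members were thus past the threshold, in a comparison in which 281 of 504 tested genes, 55.8%, were past it, 32.5% higher and 23.2% lower in replicate 2. A call is thus what most tested genes received.

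Of the tested genes, 6.75% had a smaller absolute log2 ratio than Mir708 and 42.7% a smaller one than Mir151. Over all tested genes, the coefficient of variation that edgeR calls biological was 0.426. It was fitted to these same 2 libraries, so it contains the difference between them and may be technical. With a coefficient of variation of only 0.1 built into the test, neither Mir151 (adjusted p = 0.144) nor Mir708 (adjusted p = 0.909) was past the threshold in the exact beta-binomial test, while 30.2% of the tested genes were, 19.4% higher and 10.7% lower in replicate 2. With 0.3 built in, neither member passed either, and 2.78% of the tested genes did, 2.58% higher and 0.198% lower. The vessel wall sum, by way of Mir126a and not of Mir143, was higher in replicate 2, and its part in these values was not tested.

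Among the relatives, Mir28a was higher in replicate 2, with a log2 ratio of 0.57 (adjusted p = 2.01e-53 in the exact binomial test, and 0.0255 with a coefficient of variation of 0.1). Mir7080 had a log2 ratio of 0.023 and did not pass the test (adjusted p = 0.762). Thus Mir28a, Mir708 and Mir151 had log2 ratios of 0.57, 0.052 and -0.38. Both Mir151 and Mir708 were lower relative to Mir28a in replicate 2, whatever the scaling, as the ratios within each library above show.

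**Figure D4:**
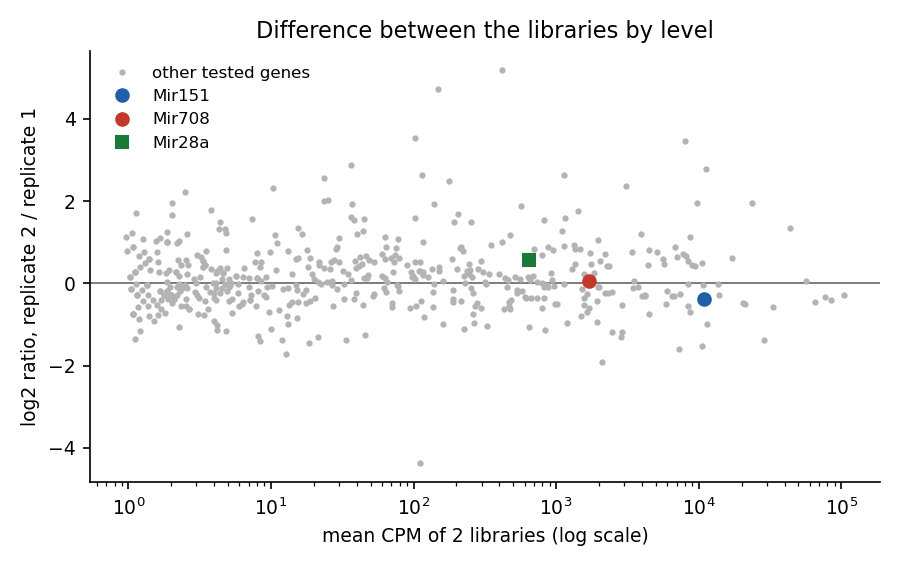
Log2 ratio of replicate 2 over replicate 1 against mean CPM on a log axis, for the 504 tested genes, with Mir151, Mir708 and Mir28a marked. Mir708 lies at 0.052, Mir151 at -0.38 and Mir28a at 0.57, inside the cloud of other genes.

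The pair was set beside other microRNA genes in introns of 19 listed host genes with roles in the nervous system, of which 18 held such a gene. The list has 27 genes without Mir151 and Mir708, 20 of them with 10 or more counts in both libraries and 4 with 0 counts in both. By mean CPM, Mir151 stood above all of them but Mir139, in the phosphodiesterase gene Pde2a, at 84408 ± 15431 CPM. In replicate 2 Mir128-1 was above Mir151, with 11949 CPM against 9517 CPM, and the gap between their means was below the SD of Mir128-1, so their order is not resolved. By mean CPM, Mir708 stood below 5 of them. These were Mir139, Mir128-1 in R3hdm1 at 8694 ± 4603 CPM, Mir149 in the glypican gene Gpc1 at 5611 ± 1671 CPM, Mir342 in Evl at 3413 ± 1281 CPM and Mir338 in the kinase gene Aatk at 2218 ± 224 CPM (SD, n = 2). The counts of Mir128-1, Mir128-2, Mir218-1, Mir218-2 and Mir190a are uncertain, because each shares a run of 20 or more bases with 1 other gene.

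Directly below Mir708 in this list came Mir128-2, in Arpp21, at 1471 ± 598 CPM, then Mir346, in the glutamate receptor gene Grid1, at 1151 ± 823 CPM. Mir204, in the channel gene Trpm3, followed at 944 ± 370 CPM and Mir326, in the arrestin gene Arrb1, at 437 ± 32.3 CPM. In replicate 2 Mir128-2 was above Mir708, with 1894 CPM against 1742 CPM, and the difference between their means was below the SD of Mir128-2. Mir346 stood at 1733 CPM in that library, and the difference between its mean and that of Mir708 was below the SD of Mir346. The order of Mir708 against these 2 genes is thus not resolved. Mir218-2, in the axon guidance gene Slit3, stood at 239 ± 37.8 CPM, and Mir488, in Astn1, at 229 ± 2.24 CPM. Mir153, in Ptprn2, reached 204 ± 154 CPM, Mir1298, in the serotonin receptor gene Htr2c, 178 ± 178 CPM, and Mir873a, in Lingo2, 162 ± 6.72 CPM. The other 6 detected genes, Mir190a, Mir218-1, Mir1264, Mir448, Mir764 and Mir224, had between 3.09 and 39.4 CPM on average.

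Of the 22 tested genes of this list, 14 were higher in replicate 2, 3 were lower and 5 did not pass the exact binomial test, beside 32.5% higher and 23.2% lower over all tested genes. The median log2 ratio was 0.48 for the list and 0.05 over all tested genes. The tested list genes were the more abundant, with a median level of 217 CPM beside 36.4 CPM over all tested genes. Genes with more counts pass the exact binomial test more easily. With a minimum of 100 counts, which also changes the scaling, 12 of 18 tested list genes were higher and 3 lower in replicate 2. Their median log2 ratio was 0.65. Over all 313 genes tested at that minimum, 122 were higher and 130 lower, with a median of -0.011. What part the level of the list genes has in their ratios was not tested. The log2 ratios that follow are from the main comparison. Mir1298 had the largest log2 ratio of the list at 2.49, followed by Mir153 at 1.68 and Mir346 at 1.59. The tested genes do not all have separate hosts. Those in Htr2c include Mir1298, Mir1264 and Mir448, which were higher, Gm22650, which was lower, and Mir764, which did not pass. The 3 lower genes were Mir139 at -0.39, Mir338 at -0.22 and Gm22650, in Htr2c, at -1.06 from 6 counts in replicate 2 and 15 in replicate 1. Mir151, at -0.38, lay near Mir139, and Mir708, at 0.052, lay near Mir873a at 0.067 and Mir488 at 0.0027, neither of which passed the test. With a coefficient of variation of 0.1, 11 of the 22 list genes passed, all of them higher in replicate 2, beside 19.4% higher and 10.7% lower over all tested genes. The vessel wall sum of 43835 CPM in replicate 2 and 16250 CPM in replicate 1, which Mir126a sets and Mir143 does not follow, was higher in the same library, and its part in the result was not tested.

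**Figure D5:**
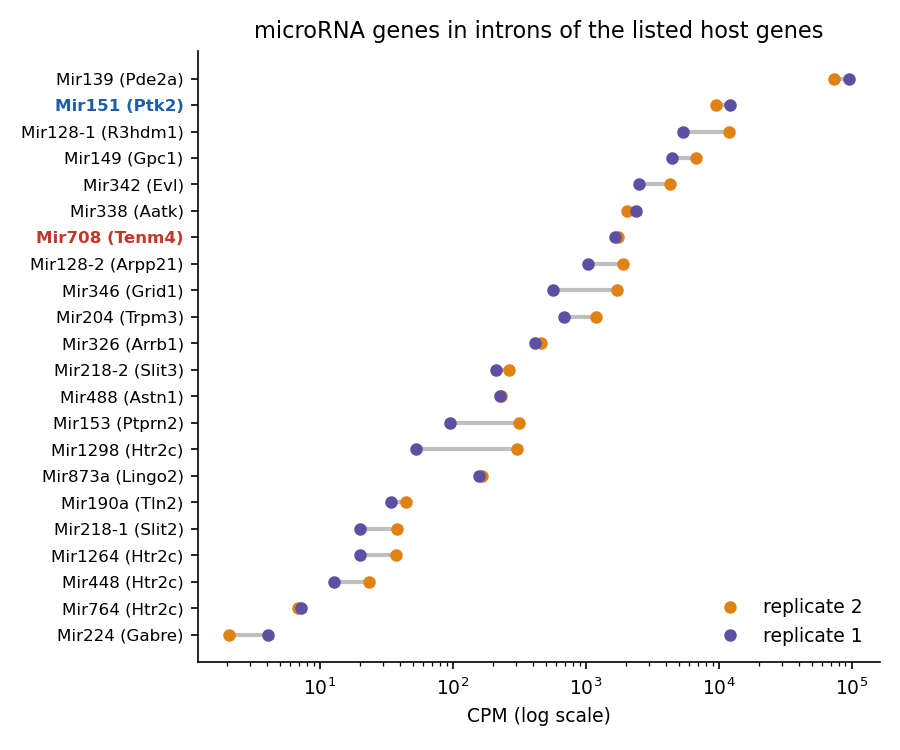
CPM on a log axis in replicate 2 (orange) and replicate 1 (purple) for Mir151, Mir708 and the 20 genes of the host list with 10 or more counts in both libraries, each with its host in brackets. By mean CPM, Mir151 stands below Mir139 alone and Mir708 below 5 list genes, but in replicate 2 Mir128-1 (11949 CPM) stands above Mir151 (9517 CPM) and Mir128-2 (1894 CPM) above Mir708 (1742 CPM).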

How the data were processed

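MicroRNA-seq counts of 2 hippocampus libraries were used. The deposited files hold raw counts per microRNA gene, 1 file per library, mapped to mm10 and counted by the authors against GENCODE M21, per the notes deposited with them. The aligner is not given in the sources used here. Column meaning (either strand, strand of the gene, opposite strand) was read from the values. Lines that name no gene, 65.4% of reads in replicate 2 and 64.7% in replicate 1, entered neither library sizes nor tests.

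Own-strand counts were analysed, and CPM is relative to their total. For each gene whose counts summed to 10 or more, the libraries were compared with an exact binomial test, two-sided and conditional on the gene's total (scipy 1.17.1). It used TMM factors of 1.01 for replicate 2 and 0.994 for replicate 1 (edgeR 4.0.16, R 4.3.3), a pseudocount of 1 CPM in log2 ratios and a threshold of 0.05. With 1 group, edgeR has no contrast to test. DESeq2 1.42.0 gave alternative size factors. Shared runs compare annotated microRNA genes only. The test was run on simulated counts with known changes. With no added variation it called 2.26% of unchanged genes, 68.1% of 1.5-fold and 68.8% of 2-fold changes. With a coefficient of variation of 0.3 it called 0.949%, 2.08% and 6.38% of them. A gene that does not pass at 0.3 is thus not shown to be unchanged. In each run the test had the simulated variation built in. The coefficient of variation fitted to the 2 real libraries, 0.426, was larger than either setting, so the shares called in simulation do not carry over to them.

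The members, the lists and the tests were chosen with earlier results of these data known. Genes named are the members, every seed relative, the host list genes with 10 or more counts in both libraries, the 3 nearest genes to each member and its neighbours in order. Gm23134, Mir6394, Gm22650, Mirlet7b and Mir150 were named after their values were seen. Of the marker lists, so were the miR-124 and miR-9 genes, Mir127, Mir122, Mir206, Mir375, Mir126a, Mir143 and Mir145a.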

Additional observations from a re-analysis of the deposited data

Results flagged for a closer look

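Mir708 had reads on its opposite strand, which the own-strand comparisons above do not use and the either-strand counts include. There were 10 counts in replicate 2 and 5 in replicate 1, above the 3 counts that a count of 0 allows. These were 0.109% of its own-strand counts in replicate 2 and 0.0684% in replicate 1. No other annotated microRNA gene overlaps Mir708. Among 142 genes with 1000 or more own-strand counts in both libraries and no overlapping microRNA gene, 128 had 0 opposite-strand counts in both, and Mir151 is among them. Over 3 such counts in both libraries were found for 3 genes, Mir708, Mirlet7b (13 in replicate 2 and 4 in replicate 1) and Mir150 (4 and 5). The share of Mir150 was 0.0758% in replicate 2, below that of Mir708, and 0.137% in replicate 1, above it. None of the 142 had a higher share than Mir708 in both libraries. Where these reads come from was not tested.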

How the results depend on the processing

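The level of Mir151 was between 9517 and 12251 CPM with 1 library left out, and that of Mir708 between 1661 and 1742 CPM. With either-strand counts, whose total is smaller, Mir708 averaged 1854 CPM. Per 1000000 of all reads, a larger denominator by construction, Mir708 averaged 595 and Mir151 3813. The log2 ratio of Mir151 over Mir708 was between 2.45 and 2.88 with 1 library left out and 2.67 with either-strand counts.

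The log2 ratio of replicate 2 over replicate 1 for Mir708 was -9.77e-05 with DESeq2 size factors and -0.083 with a minimum of 100 counts, and it was 0.069 with library totals and 0.107 with either-strand counts. With a minimum of 1 count it was 0.052 and not past the threshold (adjusted p = 0.0581, exact binomial test). The own-strand settings use the same counts of Mir708 and differ in the scaling and in the number of tested genes. With a minimum of 100 counts the TMM factors were 1.05 for replicate 2 and 0.949 for replicate 1. With a minimum of 1 count, 778 genes were tested instead of 504. Why the scalings differ was not tested. With a coefficient of variation of 0.1 or 0.3 the ratios of 0.052 for Mir708 and -0.38 for Mir151 were not past the threshold, since the added spread widens the test. At 0.1 the test called 152 of all 504 tested genes and 11 of the 22 tested genes of the host list. At 0.3 it called 14 of all 504, 1 of the 22 and 0 of the 2 tested seed relatives. The exact binomial test called 1 of these 2 relatives and 281 of the 504 genes. With a minimum of 100 counts the exact binomial test called both of the 2 tested seed relatives, 1 higher and 1 lower in replicate 2. At that minimum it called 252 of 313 tested genes. Leaving out a library leaves no ratio between libraries. No paired analysis was possible because there is 1 group. Depth does not limit the members, which have over 1000 counts in each library, but the number of libraries does.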
